A study of Homo sapiens with 3 samples.

Results

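FXYD proteins and beta subunits of the sodium pump were described in HepG2 cells after etoposide treatment. The 8 genes were FXYD1, FXYD2, FXYD3, FXYD5, FXYD6, FXYD7, ATP1B1 and ATP1B3, taken by their symbol in the array design. They were taken out of 27274 gene names, with all 12 of their probes out of 34127. Some of these names are bare transcript or probe identifiers, and counts of all genes are counts of names. They were picked with their signals on these arrays already known, so all levels and folds of these genes are a description and carry no test. HepG2 is an established human hepatocellular carcinoma line, and etoposide is a topoisomerase II poison that causes DNA double-strand breaks. Total RNA labelled with Cy3 was hybridised on 1 array each for control cells, cells given 10 μM etoposide (low dose) and cells given 100 μM etoposide (high dose), all collected at 30 h after growth in RPMI medium with serum. The labels call the control untreated, whereas the paper sets the array folds against DMSO, the solvent. The study asked which genes set cells under the low dose, used to induce senescence, apart from cells under the high dose, used to induce apoptosis. No condition had a second array, so no difference between conditions was set against a spread between cultures, and all folds compare single arrays.

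The sodium pump is a P-type ATPase that exports sodium and imports potassium, and it holds the gradients that drive secondary transport in hepatocytes and kidney tubules. A catalytic alpha subunit is joined by a glycosylated beta subunit, which is needed for folding and delivery to the plasma membrane. FXYD proteins are small single-span membrane proteins, named for a shared motif, that associate with the pump and tune its affinity for ions in a tissue-specific way. FXYD2, the gamma subunit, is best known from the kidney tubule.

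Each probe was a 60-base DNA oligonucleotide on a single spot. The last 30 bases of the probes behind the main values, 5′ to 3′ and as deposited, were the following, shown because the probes of FXYD2 and of FXYD3 gave unlike values. FXYD2 and FXYD3 have several probes, which are numbered here. Capitals mark AATAAA, the polyadenylation signal.
FXYD2 probe 1: gcttgggctgaaggaagctccagactcaat
FXYD2 probe 2: aagaggggagtggaggcagcccattcacct
FXYD3 probe 1: tcgcaagagggtctctttgttcaatttttt
FXYD3 probe 4: aagagacccacAATAAActcgtgacttgtc
ATP1B1: gatcttgtattcagtcaggttaaaacaacg
ATP1B3: aaatgtggtatgtggagaagttctgtatgt

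AATAAA was searched on the strand of the probe and was found in 1 of the 12 probes (8.33%), as compared with 7.67% of all 34127 probes. The FXYD1 probe opened with a start codon, in capitals, and ran on for 20 codons with no stop in frame.
FXYD1: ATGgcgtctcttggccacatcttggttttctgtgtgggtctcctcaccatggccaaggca

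Positions are those of the array design on hg18. FXYD2 probe 1 lay at chr11:117196154-117196213 on the minus strand, and the design listed 3 RefSeq mRNAs for it. FXYD2 probe 2 lay at chr11:117200610-117200669, 4456 bases away, and was listed for 1 mRNA. FXYD6, a brain-rich member of the family, had its probe 17222 bases from FXYD2 probe 1, at chr11:117213376-117213435 on the same strand. The other 4 FXYD genes formed a cluster on chromosome 19. Along the plus strand the FXYD3 probes came first, with probe 2 at chr19:40304265-40304324, probe 3 at chr19:40305887-40305946, probe 1 at chr19:40306312-40306371 and probe 4 at chr19:40307003-40307062. FXYD1 followed at chr19:40322824-40322883. The probes of FXYD7 (chr19:40334027-40334197) and FXYD5 (chr19:40343491-40346904) covered a stretch wider than 60 bases, that is, they joined exons. ATP1B1 was read at chr1:167368501-167368560 and ATP1B3 at chr3:143127632-143127691. All probes were designed on mRNAs. Whether each lay in coding or non-coding exon sequence was not analysed here, other than for FXYD1.

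Among 44495 spots per array, between 19836 and 20151 probes were well above background by the flag of the scanner software. The 75th percentile of the signal was 514 in control cells, 536 with 10 μM and 432 with 100 μM, and log2 values were taken relative to it. All 9 hepatocyte markers, such as ALB and AFP, were well above background on all arrays. Of 10 markers of blood, fibroblast, endothelial and kidney tubule cells, 6 were well above background on all arrays and 4 (COL1A1, COL1A2, AQP2 and SLC12A1) on none, and their summed signal was 1093, 846 and 1180 in control, low-dose and high-dose cells. The sum hides opposite values. PTPRC, of blood cells, gave 257, 131 and 288 and was 2.04-fold lower with 10 μM on its brightest probe, its other probes not being well above background on any array, and CD68, of macrophages, gave 173, 239 and 409 and was 2.81-fold higher with 100 μM. No other marker of this list passed 2-fold over control, and UMOD, of the kidney tubule, gave 64.7, 70.0 and 75.2. The part of such cells in the values of the FXYD genes was not tested. CDKN1A and MDM2, textbook targets of p53, were higher at both doses, by 2.99 and 2.81 on the log2 scale with 10 μM and by 2.82 and 1.67 with 100 μM.

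FXYD2, the gamma subunit, was the only one of the 8 genes that was more than 2-fold higher at both doses. Its probe 1 read 30.0 in the control, 754.5 with 10 μM and 354 with 100 μM, and passed the background flag on all 3 arrays. Control cells were thus close to the detection limit and both treated arrays were far above it. The raw spot brightness was 85.2, 869 and 454 over a local background of 24, 26 and 30. After scaling, FXYD2 was 24.1-fold higher with 10 μM (log2 4.59, SD 0.242) and 14.0-fold higher with 100 μM (log2 3.81, SD 0.245) as compared with control cells. This SD is the spread of repeated spots of 1 probe within an array at a like signal, carried to the fold. It covers spot noise only, and the spread between cultures is unknown. In RNA from a whole culture, fewer cells that express a gene and less RNA per cell cannot be told apart.

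By the size of the fold over control, FXYD2 ranked 2 of 15449 genes measured on both arrays with 10 μM and 2 of 15466 with 100 μM. Between the doses it was 1.72-fold higher with 10 μM (log2 0.78, SD 0.0745), which placed it 708 of 15435. The fold over control depended on how the dim control signal was handled. With a background model that adds 50 to each signal (normexp), it was 8.39 with 10 μM and 5.24 with 100 μM. The difference between the doses passed 2-fold under 3 other scalings, with log2 1.09 without scaling, 1.05 with median scaling and 1.01 with spike-in scaling.

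Probe 2 of FXYD2 gave 11.6, 30.7 and 34.2 in control, low-dose and high-dose cells and did not pass the background flag in control cells. Where 1 array was not well above background, its signal was raised to the lowest signal among probes that were, or kept if higher. That lowest signal was 19.5, 22.6 or 21.7 in the same order of arrays. A fold with a raised signal is a lower bound. Probe 2 was at least 1.51-fold higher with 10 μM and at least 2.08-fold higher with 100 μM. Under the other scalings the bound with 100 μM lay between 1.58-fold and 2.17-fold, and with normexp it was log2 0.69. Both probes thus had their lowest signal in control cells. Between the doses they differed in direction, with probe 1 higher with 10 μM and probe 2 at log2 -0.47 (SD 0.333), that is 1.38-fold higher with 100 μM. The log2 folds of the probes differed by 1.25 (SD 0.342), more than spot noise. Probe 2 matched a single listed FXYD2 mRNA, and the reason for the difference was not tested.

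**Figure D1:**
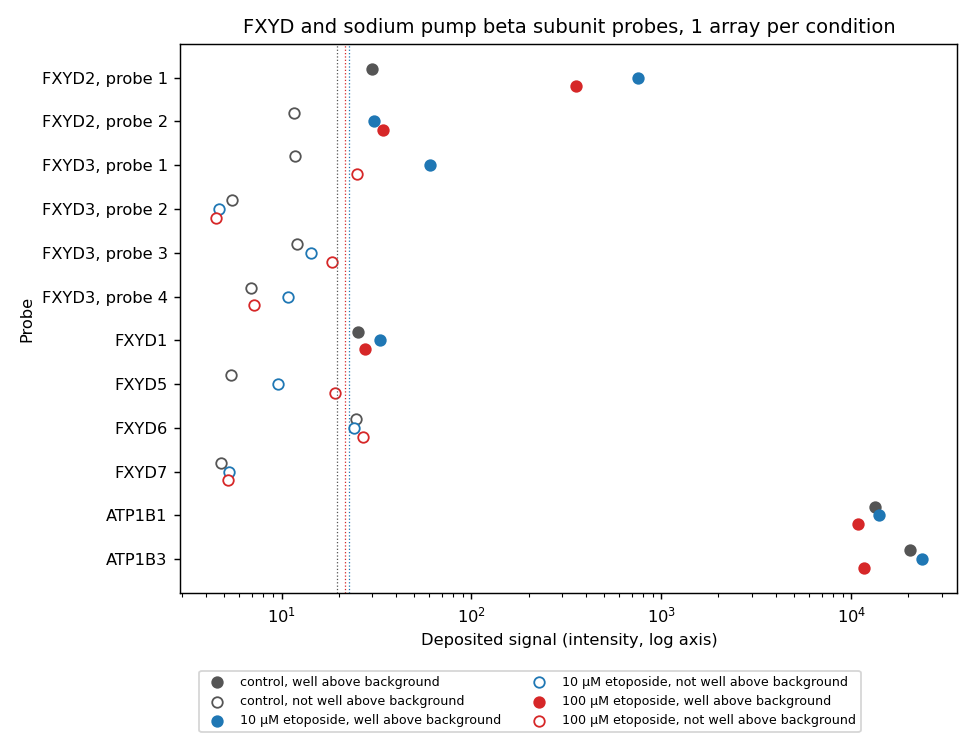
Deposited signal (log axis) of each of the 12 probes on the control (grey), 10 μM (blue) and 100 μM (red) arrays, with 1 point per array, filled where well above background and open where not. Dotted lines mark the lowest signal well above background on each array. FXYD2 probe 1 spans 30.0 to 754.5, whereas ATP1B1 and ATP1B3 lie between 10910 and 23623.

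FXYD3, first described in mammary tumours and known as a pump regulator of epithelia, was detected in low-dose cells and in no other condition. Its probe 1 gave 11.8 in control cells, 60.9 with 10 μM and 25.1 with 100 μM, and was well above background with 10 μM only. It was at least 2.99-fold higher with 10 μM than in control cells. Over 100 μM it was 1.96-fold higher (log2 0.97, SD 0.264), with the high-dose signal kept as read although it did not pass the flag. Control and high-dose arrays were not compared, since neither was well above background. With normexp the fold over control was 1.51, and when a probe had to pass the flag on all arrays the gene had no value.

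The other 3 FXYD3 probes were not well above background on any array. Probe 2 gave 5.47, 4.67 and 4.50 in control, low-dose and high-dose cells, probe 3 gave 12.0, 14.3 and 18.3, and probe 4 gave 6.88, 10.8 and 7.20. Probe 4 was designed on the same mRNA as probe 1, lay 691 bases further along, and held the AATAAA shown in capitals above. The FXYD3 value therefore rested on 1 of 4 probes, and this probe on a single spot of a single array.

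FXYD1, or phospholemman, the regulator of the pump in heart and muscle, was dim on all arrays. Its signals were 25.3, 33.2 and 27.6 in control, low-dose and high-dose cells, all well above background. The folds of 1.26 with 10 μM (log2 0.33, SD 0.359) and 1.30 with 100 μM (log2 0.38, SD 0.360) were close to the spot noise, and across the alternatives run the latter lay between log2 -0.04 and 0.44. The doses gave nearly equal values, with log2 -0.05 (SD 0.326) for low over high.

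The probes named for FXYD5 (dysadherin), FXYD6 and FXYD7 were not well above background on any array, so no fold is given. FXYD5, which is linked to cell adhesion, gave 5.42, 9.62 and 19.1 in control, low-dose and high-dose cells. FXYD6 gave 24.7, 24.2 and 26.8, and FXYD7, a brain protein, gave 4.80, 5.27 and 5.20. The FXYD6 signals lay above the lowest accepted signal of each array and were still rejected by the flag of their own spots. A signal that did not pass the flag does not show that a gene was not expressed.

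ATP1B1 and ATP1B3, the beta subunits, were bright in all conditions. ATP1B1, the widespread beta subunit, gave 13267 in control cells, 14045 with 10 μM and 10910 with 100 μM. After scaling these were nearly equal, with log2 0.02 (SD 0.0648) with 10 μM, -0.03 (SD 0.0658) with 100 μM and 0.05 (SD 0.0639) between the doses. Each was smaller than the spot noise. Without scaling, the fold between the doses was log2 0.36, higher with 10 μM.

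ATP1B3, an alternative beta subunit, gave 20270, 23623 and 11606 in control, low-dose and high-dose cells, and the high-dose signal stood apart as the lowest. It was 1.12-fold higher than control with 10 μM (log2 0.16, SD 0.0603). At the high dose it was 1.47-fold lower (log2 -0.55, SD 0.0626). Low-dose cells were 1.64-fold above high-dose cells (log2 0.71, SD 0.0627), more than spot noise, and this reached 2.04-fold only without scaling among the alternatives run. By the fold between the doses ATP1B3 stood at 807 of 15435 genes.

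In all, 2 of the 8 genes (FXYD2 and FXYD3) were more than 2-fold higher with 10 μM than in control cells, with 5 genes having a fold, and 3.38% of all 16663 genes with a fold were. At the high dose 1 of 8 was, with 4 having a fold, as compared with 6.84% of 16777 genes. None was more than 2-fold lower at either dose, against 1.61% and 3.71% of all genes. Between the doses 0 of 8 passed 2-fold in either direction, against 3.66% of 16686 genes higher with 10 μM and 3.97% lower. The genes were chosen on these same contrasts, so nothing is read from the counts. The median log2 fold of the genes with a fold was 0.33, 0.17 and 0.71 for low dose over control, high dose over control and low over high dose. That of all genes measured on both arrays was -0.03, 0.09 and -0.10. For low dose over control and low over high dose these are unlike sets. There the former medians include FXYD3 (1.58 and 0.97), which was well above background on 1 array only. FXYD1, ATP1B1, ATP1B3 and FXYD2, measured on both arrays, gave -0.05, 0.05, 0.71 and 0.78 for low over high dose.

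**Figure D2:**
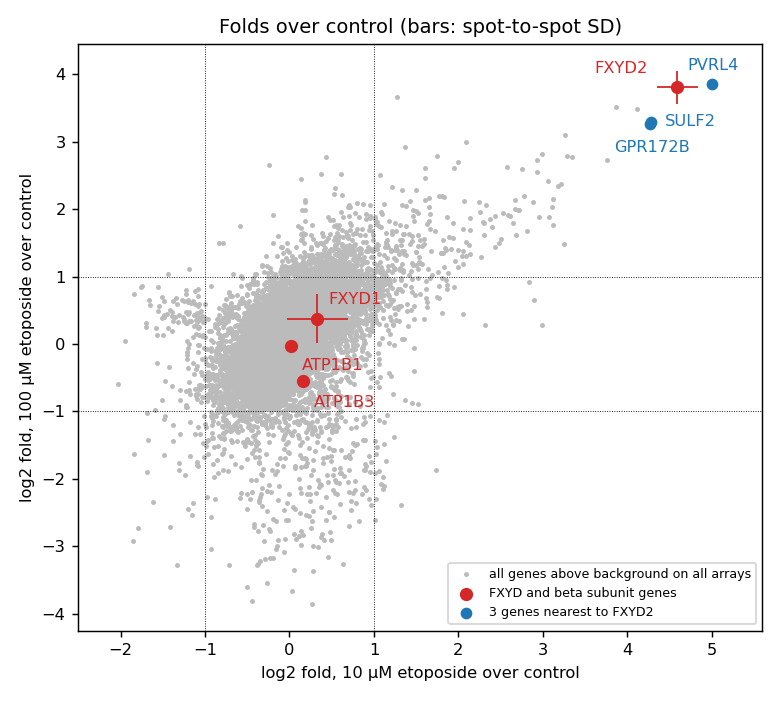
Log2 fold over control at 10 μM (x axis) and 100 μM etoposide (y axis) for each gene well above background on all arrays. Red points are the FXYD and beta subunit genes with bars for the spot-to-spot SD, blue points are the 3 genes nearest to FXYD2, and dotted lines mark 2-fold. FXYD2 lies at 4.59 and 3.81, far from FXYD1, ATP1B1 and ATP1B3, which lie inside the 2-fold lines.

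The genes with folds most like those of FXYD2 were searched among 12046 genes with a RefSeq mRNA that were well above background on all arrays, by the distance of their 2 log2 folds over control. PVRL4, or nectin 4, a cell adhesion protein, was nearest at a distance of 0.42. It gave 80.8, 2708 and 983 in control, low-dose and high-dose cells, that is 32.1-fold and 14.5-fold over control. SULF2, an extracellular sulfatase, was next at 0.61 with signals of 255, 5158 and 2097. GPR172B, a riboflavin transporter, followed at 0.64 with 22.0, 443 and 177. Each had its highest signal with 10 μM, as FXYD2 probe 1 had, but a search on these folds favours genes of that order. The likeness rests on the same 3 arrays, with the control array in both folds, and is a description.

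Among other pump subunits, ATP1A4, the catalytic subunit of sperm, gave 887, 959 and 715 in control, low-dose and high-dose cells, or log2 0.05 and -0.06 over control. It thus stayed within 2-fold, as ATP1B1 did.

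Among proteins that interact with the beta subunit, NKAIN4 was 1.69-fold higher with 10 μM and 2.41-fold higher with 100 μM (log2 0.76 and 1.27). These values came from signals of 44.2, 78.1 and 89.8 on its brightest probe. Its other probe gave 14.1, 13.2 and 20.8 and was not well above background on any array. NKAIN1 gave 28.1, 34.5 and 37.9, or log2 0.23 and 0.68 over control. ATP1B2, ATP1B4, FXYD4, NKAIN2, NKAIN3 and the proton pump genes ATP4A, ATP4B and ATP12A were not well above background on any array.

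**Figure D3:**
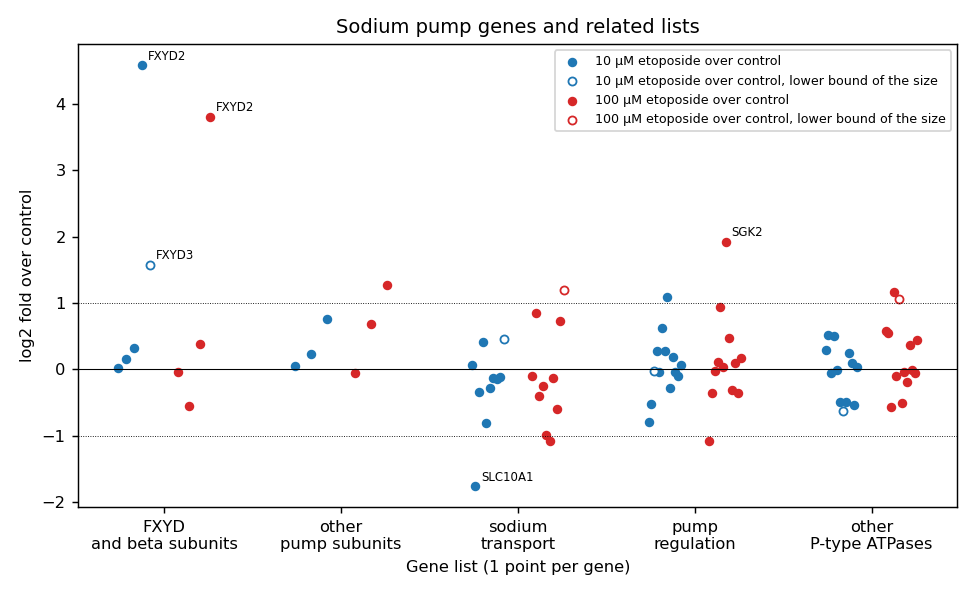
Log2 fold over control (y axis) of the genes of 5 lists (x axis) at 10 μM (blue) and 100 μM etoposide (red), with 1 point per gene, open where the value is a lower bound of the size and with dotted lines at 2-fold. FXYD2 at 4.59 and 3.81 lies above all other points, and SLC10A1 is the lowest point at 10 μM with -1.76. Some genes of the lists are not drawn.

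Other sodium transporters and channels showed no common direction. Of 21, 10 were well above background on all arrays. Among 11 with a fold, 0 were more than 2-fold higher and 1 lower with 10 μM. With 100 μM 1 was higher and 1 lower. Of all genes with a fold, 3.38% were higher and 1.61% lower with 10 μM, and 6.84% and 3.71% with 100 μM. The median log2 fold of the 11 transporters and channels was -0.13 at both doses. SLC10A1, the hepatocyte bile acid and sodium cotransporter, gave 343, 106 and 520, or log2 -1.76 with 10 μM and 0.85 with 100 μM. It was 6.11-fold higher with 100 μM than with 10 μM (log2 -2.61 for low over high). Between the doses this direction was opposite to that of FXYD2 probe 1. The phosphate carrier SLC20A1 stood at 0.41 with 10 μM. SLC20A2, a related phosphate carrier, stood at -0.80 and -0.99 over control. At the high dose SLC5A2, a glucose cotransporter, stood at 0.73 and SLC38A1, a glutamine carrier, at -1.08. SLC8A1, the sodium and calcium exchanger, did not pass the background flag in control cells and was at least 2.29-fold higher with 100 μM on its brightest probe. Its other probes were not well above background on any array.

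Regulators of the pump and of sodium handling were mostly measured, with 12 of 15 well above background on all arrays. At the low dose 1 of 13 with a fold was more than 2-fold higher and 0 lower, with a median of -0.02. With 100 μM 1 of 12 was higher and 1 lower, with a median of 0.07. The shares of all genes were 3.38% higher and 1.61% lower with 10 μM, and 6.84% and 3.71% with 100 μM. SGK2, a kinase of the SGK family, gave 109, 243 and 347, or log2 1.10 and 1.92 over control. PRKACA, the catalytic subunit of protein kinase A, which phosphorylates FXYD1, stood at 0.62 and 0.95. HSD11B2, which inactivates cortisol in aldosterone target cells, stood at -0.79 and -1.08. NEDD4L, a ubiquitin ligase of the epithelial sodium channel, stood at -0.52 and -0.36. SGK3 was lowest in low-dose relative to high-dose cells after SGK2, with log2 -0.75 (SD 0.066) on its brightest probe. The other SGK3 probe, also well above background on all arrays, gave -0.21 (SD 0.0926). SIK1, a kinase that senses sodium, was highest with 0.50.

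Other P-type ATPases were compared since they share the transport cycle of the pump but not its FXYD partners. Of 16, 11 were well above background on all arrays. With 10 μM 0 of 12 passed 2-fold, against 3.38% of all genes higher and 1.61% lower. With 100 μM 2 of 13 were higher, against 6.84% of all genes. The pair was ATP2A1, a calcium pump of muscle, with 101, 148 and 190 (log2 1.17), and ATP2A3, with a lower bound of log2 1.07. The other ATP2A3 probe was not well above background on any array. The medians were 0.01 and -0.01 over control. ATP13A2, a lysosomal pump, stood at 0.52 and 0.55, ATP7A, a copper pump, at -0.53 with 10 μM, and ATP13A3 at -0.56 with 100 μM.

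Genes with a probe within 200 kb of a probe of the 8 genes were read next. They are counted by name in the array design, and some names were bare transcript or probe identifiers. Around FXYD2 and FXYD6, 3 other genes were on the array, TMPRSS13 and IL10RA among them, and none was well above background on any array. FXYD2 was thus the single measurable gene of its window. Around the chromosome 19 cluster, 21 other names were on the array, with 10 having a fold with 10 μM and 11 with 100 μM. A transcript at chr19:40346791-40346850, inside the stretch of the FXYD5 probe, was not well above background on any array. Another at chr19:40342613-40342672, shortly before that stretch, passed the flag with 100 μM only and was at least 1.89-fold above control. Whether these belong to FXYD5 was not analysed. None was more than 2-fold higher at either dose, and the median log2 fold was -0.12 and 0.05. HAMP, which encodes the iron hormone hepcidin, was lower at both doses, with 14750, 4280 and 4005, or log2 -1.85 and -1.63.

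Around ATP1B3, 5 of 6 other genes had a fold, with a median log2 of -0.12 with 10 μM and -0.72 with 100 μM. With 100 μM 1 was more than 2-fold lower, against 3.71% of all genes. This was LOC729687, with 1070, 1281 and 444, or 0.20 and -1.02 over control and 1.22 for low over high dose. TFDP2, a partner of E2F factors, gave 1338, 1294 and 679, or -0.11 and -0.73. In both the high dose was lowest, as for ATP1B3. RNF7, a ubiquitin ligase subunit, stood at -0.01 with 100 μM. Around ATP1B1, NME7 gave 295, 174 and 143, or log2 -0.82 and -0.79, while ATP1B1 stayed near control.

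**Figure D4:**
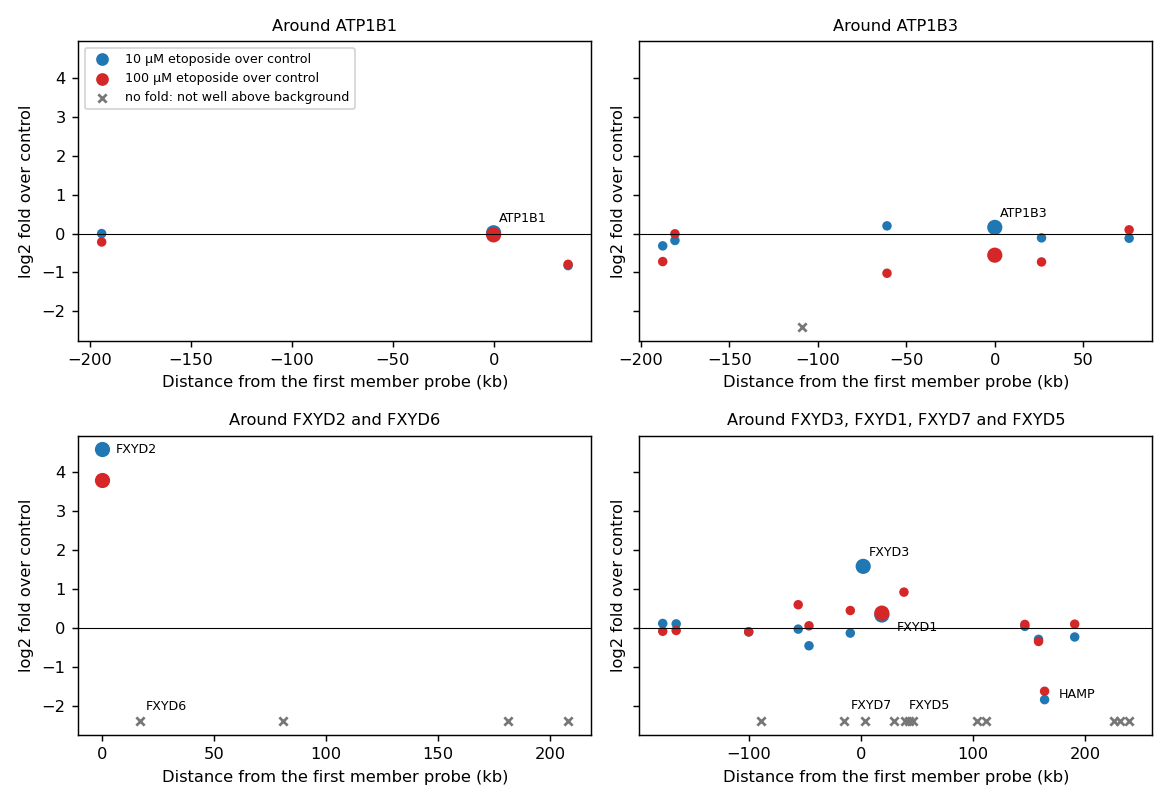
Log2 fold over control (y axis) at 10 μM (blue) and 100 μM etoposide (red) of genes within 200 kb, against the distance in kb from the first probe of the named genes, with large points for FXYD and beta subunit genes and crosses, drawn at the bottom, for genes without a fold. FXYD2 stands alone with folds in its window, FXYD3 is a lower bound at 10 μM, and HAMP is lowest in the cluster at -1.85 and -1.63.

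The folds between the doses moved with the scaling. Across the alternatives run, FXYD2 probe 1 was between 1.60-fold and 2.13-fold higher with 10 μM, ATP1B3 between 1.57-fold and 2.04-fold, and FXYD3 probe 1 between 1.11-fold and 2.52-fold. FXYD2 probe 2 was higher with 100 μM under each alternative that gave a value, with log2 between -0.54 and -0.11 for low over high. Several of these values were smaller in size than its spot SD of 0.333. FXYD1 kept its sign in 7 of 11 alternatives and ATP1B1 in 10 of 11, both with small values. Some of these alternatives, such as the series table, could not change the value.

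**Figure D5:**
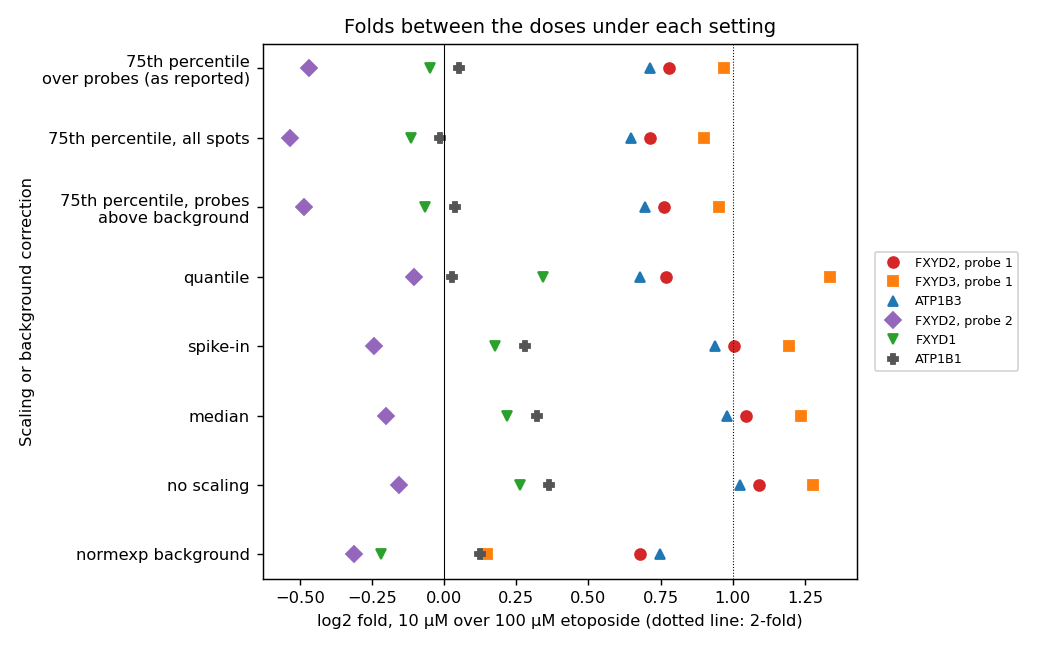
Log2 fold of 10 μM over 100 μM etoposide (x axis) for 6 probes under the reported scaling (top) and 7 other scalings or background corrections (y axis), with a dotted line at 2-fold. FXYD2 probe 1, FXYD3 probe 1 and ATP1B3 lie right of 0 in each row, FXYD2 probe 2 lies left of 0 in each row, and FXYD1 and ATP1B1 lie between -0.22 and 0.36.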

How the data were processed

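HepG2 RNA was hybridised to 1-colour Agilent arrays, all on 1 slide. The authors deposited scanner output of Agilent Feature Extraction 10.7.3.1 (version per the submitters' processing notes) with the background-subtracted intensity of each spot and the software's flags, and a series table, whose intensity values equalled the scanner's for all 44495 spots of each array. No scaling between arrays had been applied.

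Each deposited intensity was put on the log2 scale. Spots of 1 probe were averaged, leaving out outlier spots, and values were set relative to the 75th percentile over probes of each array. A gene was represented by its brightest probe over the arrays. A fold needed the brighter array well above background, and a dimmer one below the lowest such signal was set to it. With 1 array per condition no test was run. Spot SDs came from the 50 probes nearest in signal among those with 10 spots.

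The genes and lists were chosen with earlier results of these data known. Named were all 8 genes, other pump subunits on the array, the 2 highest and 2 lowest of each other list per comparison among genes measured on both arrays (some are given only as counts), the 3 genes nearest to a gene over 2-fold, and neighbours within 200 kb. HAMP, TFDP2, LOC729687, RNF7 and NME7 were picked from the neighbours, and SLC8A1 and ATP2A3 from the lists, after their values were seen. Some genes of the lists are not reported here. Array accessions of the 8 genes matched RefSeq symbols for 11 of 11. Alternatives were other scalings (none, median, quantile, spike-in, other percentiles), normexp with offset 50, other filters on dim probes, and outlier spots kept. Further ones were the series table, every probe counted, the median over a gene's probes, and thresholds of 1.5-fold and 3-fold. Python 3.11.15, pandas 2.3.3, numpy 2.4.6, matplotlib 3.10.9, R 4.3.3 and limma 3.58.1 were used, and the steps were tested on simulated data.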

Additional observations from a re-analysis of the deposited data

How the results depend on the processing

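No paired analysis was possible because there was 1 array for each condition, and all arrays shared 1 slide, so the slide was not used as a block. Of 90 counts of the 8 genes under an alternative, 79 stayed within 1.5 times and 11 moved. Of 182 single folds, 146 stayed within 1 spot SD, 36 moved, and 0 of the called values changed sign. Part of these could not move. The series table held the same intensities, and no spot of the 8 genes was flagged as an outlier. Filters on dim probes left probes well above background on all arrays unchanged. The numbers that stayed are therefore no measure of robustness. The count past 2-fold for low dose over control (2) was 1 with normexp, 1 when a probe had to pass the background flag on all arrays, and 1 at a 3-fold threshold. For high dose over control the count (1) was 3 with no filter on dim probes and 2 with every probe counted. The count higher for low over high dose (0) was 3 without scaling, 2 with median scaling, 1 with quantile normalization, 2 with spike-in scaling and 3 at a 1.5-fold threshold. The count lower for low over high dose (0) was 1 with no filter.

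Scaling also moved all genes. Of those past 2-fold at the high dose over control, 64.9% were higher, as compared with 37.2% without scaling, 33.2% with median scaling, 49.8% with quantile normalization, 45.0% with spike-in scaling, 47.5% with normexp and 75.5% with no filter. For the low over the high dose, 47.9% were higher, as compared with 77.7%, 74.6%, 65.4%, 71.1%, 72.3% and 26.8% in the same order. For the low dose over control the share was 67.8%, and 56.6% with no filter. The median log2 fold of low over high dose over genes that passed the background flag on all arrays was -0.09, and 0.22 without scaling, 0.18 with median scaling and 0.13 with spike-in scaling. For the high dose over control it was 0.08, and -0.17, -0.21 and -0.09. Signals near 20 limit FXYD1, FXYD2 in control cells, and FXYD3. Repeated spots had a median SD of 0.23 to 0.25 (log2) at signals of 20 to 50, as compared with about 0.05 among bright ones. In control cells FXYD3 probe 1 (11.8) and FXYD2 probe 2 (11.6) were dimmer still, with spot SDs of 0.559 and 0.581.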
